A study of Mus musculus with 6 samples.

Results

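The genes described here encode histones, the proteins around which DNA is wound, in CD4+CD8+ double-positive thymocytes, the stage of T cell development whose cells are selected by the fit of their receptor. The members are 69 gene symbols of a table of 37867 gene models, chosen by name: clustered genes (Hist1h to Hist4h), variants of H2A and H3 (H2af and H3f) and solitary linker histone genes (H1f). Where a symbol occurred in several models, the one with the highest sum of both genotypes was kept, which left 67 distinct models: 57 clustered, 6 of variants and 4 of solitary linkers. The samples were sorted from miR181a1/b1 -/- mice, which lack the microRNA genes Mir181a-1 and Mir181b-1, and from wild type mice, all of the strain C57bl6, with 3 sorted populations per genotype. The sources used here give neither the ages of the mice nor whether each population came from a separate animal. The deposited table holds 1 value per genotype in FPKM (fragments scaled to transcript length and library size), so values of single populations and an SD were not used here, and the read depth is unknown. Every error below, written SE, is the standard error that the authors' test statistic implies for the log2 ratio. The sources used here do not say whether it measures a spread between samples, and any such spread may be technical. All log2 ratios are knockout over wild type, and a gene is called when the authors' deposited table lists it with q under 0.05.

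A nucleosome holds the core histones H2A, H2B, H3 and H4, and a linker histone, H1, binds the DNA that enters and leaves it. The clustered genes are switched on in S phase to package new DNA. Their mRNAs usually end in a stem-loop in place of a poly(A) tail, and the protein SLBP binds that stem-loop and governs their processing, translation and decay. Variant and solitary linker genes lie outside the clusters, usually give polyadenylated mRNAs and are expressed through the cell cycle. Some clustered genes can also give polyadenylated mRNAs. The kit named in the labels usually selects polyadenylated RNA, but the labels do not say how RNA was selected.

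The stem-loop is shown first because it is the known mark of clustered histone mRNAs. Reference transcripts (GENCODE M21, build GRCm38, 1 per gene) were found for 68 of the 69 symbols, and 36 of them, 35 clustered genes and H2afx, held a perfect stem-loop of 16 bases. The search took GGNNNT, the loop TTTN and ANNNCC in direct succession on the transcript strand, with the first and last 6 bases fully paired. It found the element in 54 of 21877 coding genes (0.247%). In the members it began 21 to 58 bases after the stop codon. Of the 21 clustered genes without a match, 15 had fewer than 20 bases of 3′ UTR in the reference, so the place of the element was not covered. The 7 forms are given 5′ to 3′ with the stem in capitals, each with a gene that carries it.
Hist3h2ba: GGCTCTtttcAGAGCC
Hist1h3c: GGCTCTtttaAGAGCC
Hist2h2ac: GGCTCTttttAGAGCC
Hist1h4c: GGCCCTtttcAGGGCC
Hist1h4i: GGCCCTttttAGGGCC
Hist1h4b: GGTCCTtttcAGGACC
H2afx: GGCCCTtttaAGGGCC
The first form was shared by 19 clustered genes of H1, H2A, H2B and H3. All forms with the stem GGCCCT or GGTCCT came from H4 genes, except that of H2afx.

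The other sequence of interest is the seed of the deleted microRNAs. The mature strands (RefSeq, GRCm38.p6) are given with the seed, bases 2 to 8, in capitals, and the 2 strands have that seed in common.
miR-181a-5p: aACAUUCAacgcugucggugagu
miR-181b-5p: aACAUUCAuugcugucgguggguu
The match to bases 2 to 8, TGAATGT, occurred in the 3′ UTR of the reference transcript in 2 of 68 members, H3f3a and Hist1h1d, beside 14.5% of all coding genes. A match to bases 2 to 7 followed by A, GAATGTA, occurred in 1 member, H2afv, beside 9.89% of coding genes. The sites in the members with a tested model follow, with the match in capitals.
H3f3a: agtagttcTGAATGTtagatatt
H2afv: aaaaattgGAATGTAgtatacct
The shares were not adjusted for the length of the 3′ UTR, and 15 clustered references had fewer than 20 bases of it. A match is a description of the letters and not a shown target. The model with the H3f3a site did not pass the threshold, and the model with the H2afv site was called lower in the knockout.

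Of the 67 histone models, 58 had a lower value in the knockout, 3 a higher one and 6 were at 0 in both genotypes. The authors tested 43 of the 67, and 42 of these lay below the wild type. Of all tested models 59.6% did so, and 49.1% of those with means below 1 FPKM. As 23 tested clustered models passed the authors' test filter through their wild type value, the count of 42 supports nothing about direction. Of the 43 tested, 10 were called lower and none higher in the authors' deposited table, beside 15.3% lower and 1.79% higher of all 13834 tested models. By class, 5 of 36 tested clustered models (13.9%), a share near that of all models, and 5 of 7 tested models of variants and solitary linkers were called lower. The median log2 ratio of all tested models was -0.17, and after centring on it 10.8% of all models were called lower and 3.60% higher. In sorted cell populations, fewer cells of a type and less RNA per cell cannot be told apart.

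**Figure D1:**
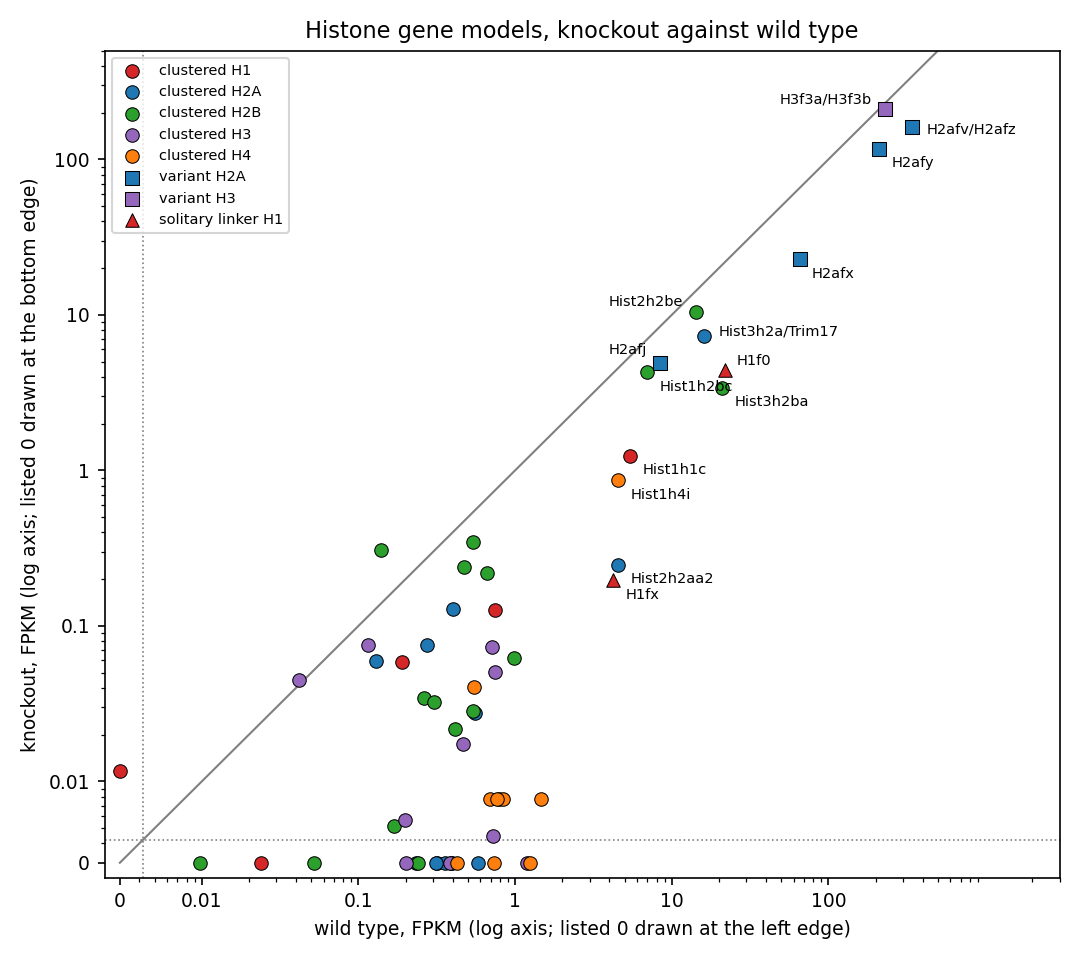
Each point is a histone gene model, with its wild type FPKM on the horizontal and its knockout FPKM on the vertical log axis; color gives the histone type, shape the class, and a value listed as 0 is drawn at the edge. The H2afv/H2afz, H2afy, H3f3a/H3f3b and H2afx models lie highest, most clustered models lie below 1 FPKM, and 58 of the 61 models with any signal lie below the line of equal values.

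The models of H2afv/H2afz, H3f3a/H3f3b, H2afy and H2afx, all variants, had the highest FPKM of the histone genes, while H2afj and H2afy2 lay lower. The 6 variant models summed to 517 FPKM in knockout cells and 855 FPKM in wild type cells. The 57 clustered models summed to 30.0 and 94.6 FPKM, and the 4 solitary linkers to 4.65 and 25.9 FPKM. FPKM is per length, but how far RNA selection, reads that match several genes and base composition set the levels of these classes apart was not tested.

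The model named for both H2afv and H2afz was the highest of all in the wild type. These genes encode forms of H2A.Z, the variant found at nucleosomes next to transcription start sites. The model lies on chromosome 11 from 6328146 to 6344417 (mm9), where the reference places H2afv. It reached 341 FPKM in the wild type and 162 FPKM in the knockout (log2 -1.08, SE 0.26; the authors' deposited table lists q = 0.000456). H2afz itself lies on chromosome 3, where a separate model stood at 3.43 against 6.35 FPKM (the authors' deposited table lists q = 0.615). The sources used here do not say how reads were divided between these related genes, so the value stands for the pair.

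H2afy, which encodes macroH2A, a large variant of silent chromatin, fell from 211 FPKM in the wild type to 118 FPKM in the knockout. Its log2 ratio was -0.84 with an SE of 0.28 (the authors' deposited table lists q = 0.0222), and the model spans 56103625 to 56236876 on chromosome 13 (mm9). H2afx encodes the variant that is phosphorylated around DNA breaks, including those made by the recombinase in thymocytes. It stood at 23.0 against 65.5 FPKM (log2 -1.51, SE 0.27; the authors' deposited table lists q = 8.54e-07), on chromosome 9 from 44142797 to 44144156 (mm9). Its ratio was the lowest of the called variants as deposited, but after removal of a trend in GC content and length it was 0.15 and was not called.

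The remaining tested variants did not pass the threshold. The model of H3f3a and H3f3b, which encode the replacement form of H3, stood at 210 against 229 FPKM (log2 -0.12, SE 0.23; the authors' deposited table lists q = 0.826). It lies on chromosome 1, the chromosome of H3f3a. A model of H3f3b alone, on chromosome 11, stood at 160 against 211 FPKM (the authors' deposited table lists q = 0.234). H2afj, an H2A variant gene next to Hist4h4, stood at 4.93 against 8.41 FPKM (the authors' deposited table lists q = 0.0667). H2afy2, the second macroH2A gene, was at 0 in both genotypes and was not tested.

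Both expressed solitary linker genes fell, and by more than any variant. H1f0, a linker histone that accumulates in cells that stop dividing, stood at 4.45 against 21.7 FPKM, 4.89-fold higher in the wild type (log2 -2.29, SE 0.29; the authors' deposited table lists q = 2.84e-12). Its model lies on chromosome 15 from 78841646 to 78861218 (mm9). A second model with its name, shared with Icam1 on chromosome 9, stood at 4.53 against 6.50 FPKM (the authors' deposited table lists q = 0.314) and was left out by the rule. H1fx stood at 0.197 against 4.20 FPKM, 21.3-fold higher in the wild type (log2 -4.41, SE 0.69; the authors' deposited table lists q = 1.84e-08), on chromosome 6 from 87930414 to 87931476 (mm9). The differences of these log2 ratios from those of the variants were not tested. H1fnt, the linker histone of spermatids, and H1foo, that of oocytes, were at 0 in both genotypes.

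The clustered genes gave little signal in either genotype. Their median was 0.0117 FPKM in knockout cells and 0.424 FPKM in wild type cells, and 7 of 57 models had a mean of at least 1 FPKM. These 7 made up 72.7 of the 94.6 FPKM summed over the clustered models in the wild type and 27.8 of the 30.0 FPKM in the knockout.

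All 7 were lower in the knockout, and 4 were called lower, beside 17.2% of all tested models with means of at least 1 FPKM. Hist3h2ba, an H2B gene on chromosome 11 from 58762412 to 58763032 (mm9), had the highest wild type value of the clustered genes at 20.99 FPKM, against 3.41 FPKM in the knockout (log2 -2.62, SE 0.39; the authors' deposited table lists q = 5.05e-09). Its neighbor Hist3h2a, an H2A gene, stood at 7.37 against 15.99 FPKM (log2 -1.12, SE 0.38; the authors' deposited table lists q = 0.0217). The model spans 58768186 to 58791552 on chromosome 11 (mm9). It also carries the name Trim17, a neighboring gene, so its reads may include both.

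The linker gene Hist1h1c, on chromosome 13 from 23830675 to 23832235 (mm9), stood at 1.24 against 5.41 FPKM (log2 -2.12, SE 0.39; the authors' deposited table lists q = 2.43e-06). Hist2h2aa2, an H2A gene of the cluster on chromosome 3 (96043638 to 96044216, mm9), stood at 0.248 against 4.56 FPKM (log2 -4.20, SE 0.84; the authors' deposited table lists q = 2.07e-05). The fifth called clustered gene, Hist2h3b, an H3 gene of the same cluster (96072616 to 96073027), was at 1.18 FPKM in the wild type but listed at 0 in the knockout (the authors' deposited table lists q = 0.0195), and no fold is given for it.

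The other 3 models of at least 1 FPKM did not pass the threshold. Hist2h2be, an H2B gene, had the highest knockout value of the clustered genes at 10.4 FPKM, against 14.2 FPKM in the wild type (log2 -0.45, SE 0.27; the authors' deposited table lists q = 0.282). Hist1h2bc, also an H2B gene, stood at 4.29 against 6.94 FPKM, with an SE of 1.14 on a log2 ratio of -0.69. Hist1h4i, an H4 gene, stood at 0.871 against 4.55 FPKM, with an SE of 2.74 on a log2 ratio of -2.39.

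**Figure D2:**
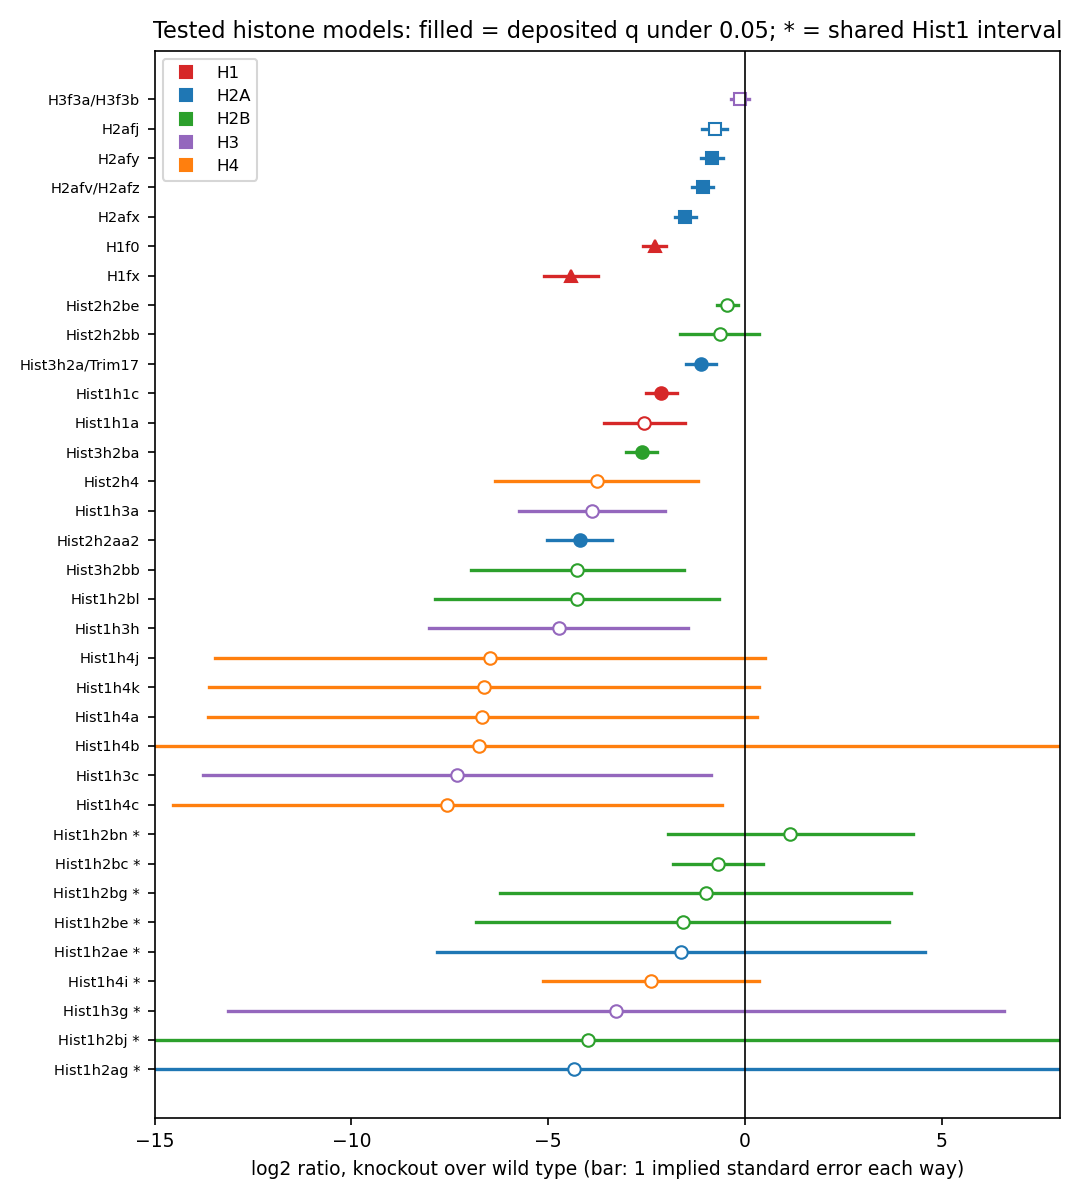
Log2 ratio, knockout over wild type, of the 34 tested histone models with a value above 0 in both genotypes; bars are 1 SE each way, some running past the axis, and filled symbols are the called models (q under 0.05). Variant and solitary linker models have short bars, and Hist1h2bn has the one ratio above 0.

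The remaining 50 clustered models had means below 1 FPKM. In that range 44 were lower in the knockout, 3 were higher and 3 were at 0 in both. Of the 29 tested, 1 was called, Hist2h3b, beside 6.41% called lower of all tested models with such means. Their log2 ratios were large and their errors larger: Hist1h4c, at 0.00774 against 1.46 FPKM, had a log2 ratio of -7.56 and an SE of 6.97. Of the 36 tested clustered models, 23 had under 0.1 FPKM in the knockout and passed the authors' test filter through their wild type value. A model of that kind had to differ, so the counts and medians over tested clustered models describe them and support nothing.

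By histone type, the 11 clustered H4 models summed to 0.950 FPKM in knockout cells and 12.04 FPKM in wild type cells, and the 10 H3 models to 0.271 and 4.76 FPKM. The 14 H2A models summed to 7.90 and 24.1 FPKM, the 17 H2B models to 19.4 and 47.3 FPKM, and the 5 clustered H1 models to 1.44 and 6.37 FPKM. The genes named above make up most of the sums of H2A, H2B and H1. The highest H3 value was the 1.18 FPKM of Hist2h3b in the wild type, and no other H3 model reached it in either genotype.

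The H4 genes show the limit of these low values. Hist1h4a, Hist1h4b, Hist1h4c, Hist1h4j and Hist1h4k all had the same knockout value, 0.00774 FPKM, with wild type values from 0.688 to 1.46 FPKM. The coding sequences of the 11 clustered H4 genes were 85.3% to 98.4% identical in pairs. The range was 93.9% to 99.3% for H3 and, for pairs of equal length, 82.9% to 98.95% for H2B and 77.6% to 98.98% for H2A. Reads from the most alike genes may match several of them, but this was not tested. How such reads were treated is not stated in the sources used here, and the values of single clustered genes are uncertain to that extent. Hist1h4d, Hist1h4f and Hist1h4h were listed at 0 in the knockout, with 1.24, 0.738 and 0.424 FPKM in the wild type. Hist2h4 stood at 0.0404 against 0.551 FPKM.

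Among the H3 genes, Hist1h3a stood at 0.0502 against 0.743 FPKM, Hist1h3c at 0.00449 against 0.719 FPKM and Hist1h3g at 0.0736 against 0.711 FPKM. Hist1h3h had 0.465 and Hist1h3i 0.383 FPKM in the wild type, with 0.0175 and 0 FPKM in the knockout. None of these 5 passed the threshold. Hist1h3b and Hist1h3e, not tested, had 0.197 and 0.201 FPKM in the wild type.

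Low H2A genes that the authors tested were Hist1h2ae, Hist1h2af, Hist1h2ag, Hist1h2ai and Hist2h2ac, at 0.356 to 0.583 FPKM in the wild type. Their knockout values were at most 0.129 FPKM, that of Hist1h2ae, and 3 of them were listed at 0. None passed the threshold, and the smallest q was that of Hist2h2ac (the authors' deposited table lists q = 0.0969). Hist1h2ab, Hist1h2ah, Hist1h2ak and Hist1h2an were not tested, at 0.232 to 0.318 FPKM in the wild type.

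The low H2B genes tested were Hist1h2be, Hist1h2bg, Hist1h2bj, Hist1h2bl, Hist1h2bm, Hist1h2bn, Hist2h2bb and Hist3h2bb. Their wild type values ran from 0.138 FPKM for Hist1h2bn to 0.983 FPKM for Hist1h2bj. Hist1h2bn was the exception in direction, at 0.308 FPKM in the knockout (log2 1.15, implied standard error 3.12). A second model of Hist1h2bn, lower in sum and left out by the rule, pointed the other way, at 0.0141 against 0.377 FPKM, so the sign for this gene depends on which model is read. Hist2h2bb stood at 0.347 against 0.542 FPKM, and none of the 8 passed the threshold. Hist1h2bb, Hist1h2bf and Hist1h2bk were not tested, at 0.240 to 0.303 FPKM in the wild type.

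Among the clustered linker genes besides Hist1h1c, Hist1h1a stood at 0.126 against 0.743 FPKM (log2 -2.56, SE 1.03; the authors' deposited table lists q = 0.0678). Hist1h1d, not tested, stood at 0.0584 against 0.190 FPKM. Hist1h1b and Hist1h1t, the linker gene of the testis, had at most 0.0237 FPKM in either genotype. In all, 24 members were not tested, none with a mean above 0.175 FPKM. Those at 0 in both genotypes were Hist1h2aa, Hist2h2ab, Hist4h4, H1fnt, H1foo and H2afy2.

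The position of a model in the table moved with its error. In the table, 22 Hist1 models were assigned to 1 interval of chromosome 13 from 21925626 to 23784349 (mm9), in place of a span of their own. Of all tested models 15.3% were called lower, and 6.41% of those with means below 1 FPKM. None of the 13 tested in the interval was called, while 5 of the 23 tested clustered models at other places were (21.7%). Level differed as well. Among models with means of at least 1 FPKM, 4 of 5 at other places and 0 of 2 in the interval were called. Of the 29 tested clustered models with lower means, in either place, 1 was called. The SEs of the models with a ratio ran from 1.14 to 16.1 with a median of 5.24 in the interval and from 0.27 to 33.4 with a median of 2.64 elsewhere. All tested models with means of 1 to 10 FPKM had a median of 0.38, and Hist1h2bc and Hist1h4i, which lie in the interval with means in that range, had 1.14 and 2.74. The 3 tested models of other genes in the interval, Zfp184, Zfp322a and Abt1, had SEs of 0.93, 0.32 and 0.56. The part of the interval in the missing calls was not tested.

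Most of the clustered models of at least 1 FPKM had a long reference end, but wild type medians differed little by the end. Clustered genes whose reference runs at least 100 bases past the stem-loop, or has a 3′ UTR of at least 100 bases without one, numbered 22, and 6 of the 7 models of at least 1 FPKM were among them. They are Hist3h2ba (169 bases past the stem-loop), Hist3h2a (1643), Hist1h1c (840) and Hist1h4i (330), and Hist2h2be and Hist1h2bc, which had 3′ UTRs of 2192 and 742 bases with no perfect stem-loop. The other 34 with a reference had shorter ends, and Hist2h2aa2, which ends 35 bases past its stem-loop, was the one among them with at least 1 FPKM. The sums of the 22 were 28.5 FPKM in knockout cells and 75.1 FPKM in wild type cells, and those of the 34 were 1.45 and 19.0 FPKM, a ratio of 2.64 against 13.1. Within the first group values still ranged widely, since Hist4h4, with 2445 bases past its stem-loop, was at 0 in both genotypes. Wild type medians were 0.475 FPKM for genes with at least 100 bases past a stem-loop and 0.491 FPKM for those with fewer. The knockout medians of these genes were 0.0584 and 0.00670 FPKM. Over the 22 and the 34, medians were 0.606 and 0.395 FPKM in the wild type and 0.0589 and 0.00481 FPKM in the knockout. The groups also differed in median GC content, 48.5% in the 22 (17 with a value) and 61.4% in the 34 (30 with a value). Listed at 0 in the knockout alone were 3 of the 22 and 14 of the 34. The groups were set after the values were seen. The difference in ratio, and the part of GC content in it, were not tested.

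**Figure D3:**
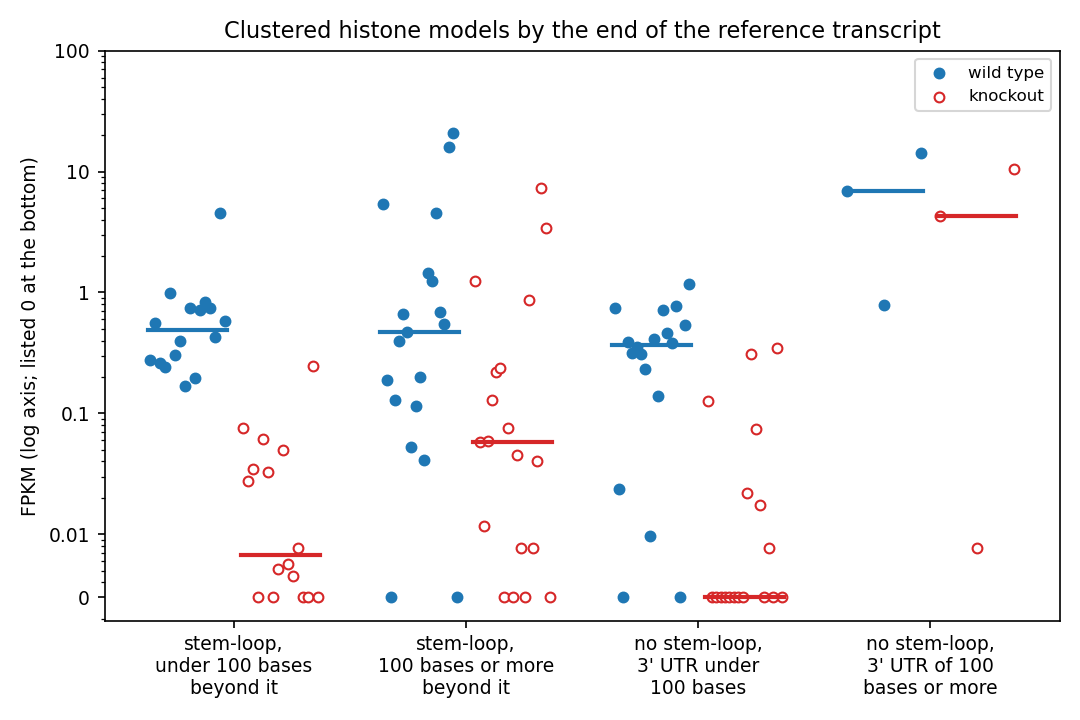
FPKM of 56 clustered histone models in the wild type (filled) and the knockout (open) on a log axis, grouped by the end of the reference transcript; lines are medians and a listed 0 is drawn at the bottom. Values above 1 FPKM occur mostly where the reference has a long 3′ end, and Hist2h2aa2 is the highest point of the first group.

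Base composition moved with the ratios. Over 7462 coding genes with means of at least 1 FPKM, 58.6% of the variance in log2 ratio followed a smooth trend in GC content and transcript length, and of the genes with the highest GC content, from 57.9% up, 72.8% were called lower. The histone references were GC-rich: the 47 clustered models with a value had a median of 58.6% GC, against 50.3% for all tested models with one. The 14 histone models of at least 1 FPKM all had a value, so each could be set beside its place on the trend.

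The ratio of H2afx lay on the trend. At 62.3% GC its fitted value was -1.66 against a measured log2 ratio of -1.51, and H2afy (-0.60 fitted, -0.84 measured) and H2afj (-0.72 fitted, -0.77 measured) also lay near it. A model was called after removal of the trend when its remaining ratio, divided by its SE, passed 0.05 with Benjamini-Hochberg adjustment over 8265 genes. H1f0 lay far below the trend, with a value of -1.87 after its removal, and was called. The model of H2afv and H2afz was at -0.96 and was also called. Its GC content, 47.2%, and its length were those of the H2afv reference alone. H1fx was at -3.44 and was called, but at 71.3% GC it had the highest GC content of all genes fitted, where the trend is least certain.

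Among the clustered genes, Hist1h1c stood at -1.29 after removal of the trend and passed narrowly. Hist3h2a, Hist3h2ba and Hist2h2aa2 were at -1.13, -1.16 and -2.08 and did not pass. So 4 of these 14 models were called lower after removal, beside 0.92% lower and 0.847% higher of all 8265 genes. H1fx, one of the 4, and Hist2h2aa2 and Hist1h4i reached a mean of 1 FPKM only through their wild type value. The count therefore describes the 14 and supports nothing further. Among the 14, H2afx lay above its fitted value by 0.15, and the others lay below theirs. For the clustered genes as a whole this check is void, because 21 of 36 tested models (58.3%) had a reference of fitting length and a ratio.

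**Figure D4:**
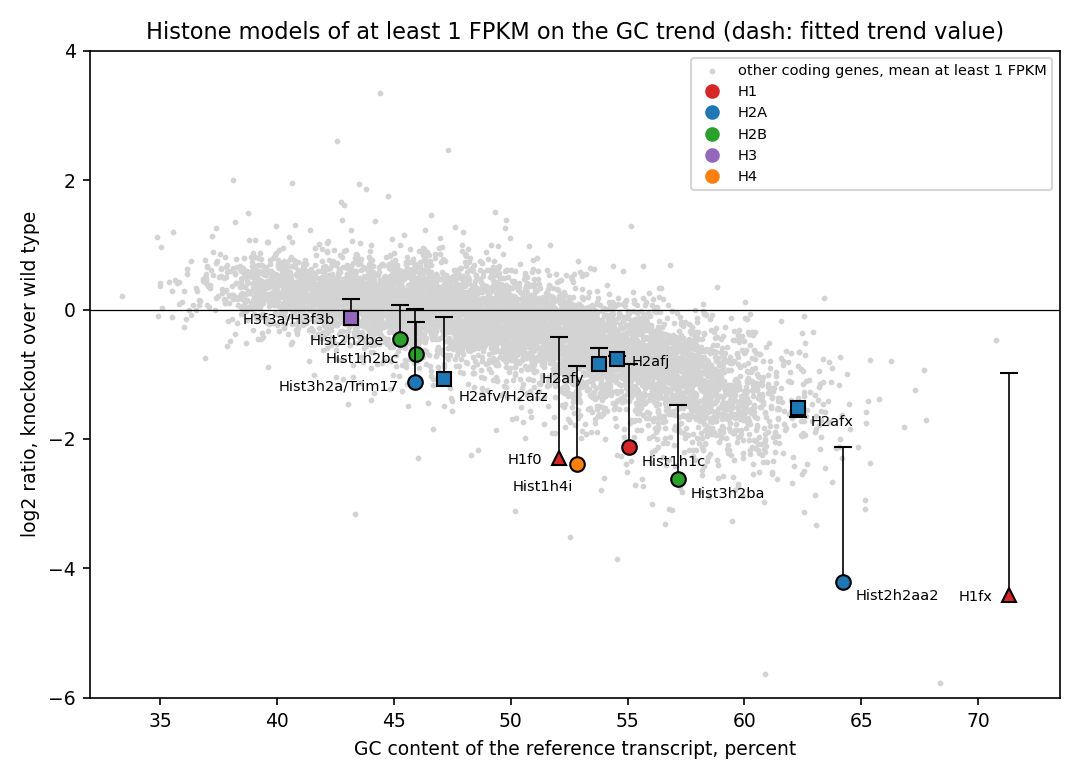
Log2 ratio, knockout over wild type, against GC content of the reference transcript for coding genes of at least 1 FPKM (grey) and the 14 histone models of that level (colored by type; circles clustered, squares variants, triangles solitary linkers). The dash above or below each histone model is its fitted trend value, from which H1f0, H1fx and Hist2h2aa2 lie far and H2afx, H2afy and H2afj do not.

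Most genes that make and process histone mRNA did not pass the threshold. Of 12 tested members of a list of 13, 3 were called lower and none higher (25.0%, beside 15.3% of all tested models), with a median log2 ratio of -0.07. Slbp, which binds the stem-loop, stood at 44.4 against 41.0 FPKM (the authors' deposited table lists q = 0.863). Npat, the coactivator of the clustered genes, stood at 14.3 against 10.4 FPKM (the authors' deposited table lists q = 0.199), and Casp8ap2, a partner of the processing machinery, at 27.1 against 23.0 FPKM (the authors' deposited table lists q = 0.680). Lsm10, a subunit of the U7 particle that cuts the transcripts, was called lower (4.43 against 12.8 FPKM). So were Sympk, the scaffold of the cleavage complex (13.8 against 33.5 FPKM), and Upf1, a helicase of histone mRNA decay (17.7 against 33.7 FPKM). With the trend in GC and length removed, none of the 12 was called.

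Of 22 tested histone chaperones and deposition factors, 7 were called lower (31.8%, beside 15.3% of all tested models) and none higher, with a median log2 ratio of -0.30. The 5 with the smallest q were Ipo4, an importer of histones (1.10 against 2.60 FPKM), Znhit1 and Vps72, which help to place H2A.Z (12.4 against 30.8 and 6.67 against 17.7 FPKM), and Chaf1b and Chaf1a, subunits of the complex that deposits H3 and H4 behind the replication fork (9.47 against 17.3 and 7.09 against 14.4 FPKM). The others were Asf1b, which hands H3 and H4 to that complex (29.8 against 48.8 FPKM), and Cabin1 (15.5 against 29.4 FPKM). Hira, which deposits the replacement H3, stood at 17.1 against 21.7 FPKM (the authors' deposited table lists q = 0.528). None was called after removal of the trend.

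Of 21 S phase genes, 7 were called lower and none higher (33.3%, beside 15.3% of all tested models), with a median log2 ratio of -0.57. Pcna, the replication clamp, stood at 70.6 against 168 FPKM, Cdt1, which licenses origins, at 4.71 against 15.5 FPKM, and the helicase subunits Mcm5, Mcm2 and Mcm7 at 22.1 against 49.8, 26.1 against 56.1 and 19.96 against 40.4 FPKM. After removal of the trend Pcna and Mcm5 remained called. The summed level of the list was 1074 FPKM in knockout cells and 1347 FPKM in wild type cells, while the sum over all tested models was 1.21-fold higher in the wild type. Its part in the histone values was not tested. Within the same list, Mki67 and Top2a, markers of dividing cells, stood at 213 against 184 and 210 against 222 FPKM and did not pass the threshold.

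The sorted cells carried the markers of their stage. All 8 markers of double-positive cells were tested, with sums of 5441 FPKM in knockout cells and 6009 FPKM in wild type cells. Of these, 1 was called lower, Ptcra. Of the 2 double-negative markers, Il2ra rose to 29.4 from 2.89 FPKM, and Kit stood at 0.370 against 0.672 FPKM and did not pass the threshold. The mature T cell markers Ccr7 and Klf2 stood at 3.20 against 3.04 and 0.948 against 0.924 FPKM and did not pass the threshold. Among B cell markers, Cd79b stood at 15.7 against 20.1 FPKM, and Cd79a and Ms4a1 were at most 0.212 FPKM. Of 3 myeloid markers, Itgam fell to 1.02 from 2.11 FPKM, Csf1r stood at 0.0826 against 0.123 FPKM and Cd14 was at 0 in both genotypes. The erythroid and stromal markers found, 2 of each, summed to at most 1.17 FPKM. The part of Il2ra-expressing or other cells in the histone values was not tested.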

How the data were processed

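RNA of 6 libraries, 3 per genotype, was summarised by the authors in 1 deposited table. The submitters' processing notes name TopHat2 and the mouse build mm9; the sources used here do not give the counting, annotation or test. The deposited FPKM values are 1 per genotype; the unit follows from the table's layout and is not named in its header. The deposited p-value and q-value columns come from the authors' test, and the q is the Benjamini-Hochberg adjustment over the 13834 tested models (largest difference 1.89e-06). The deposited log2 ratio, wild type over knockout, was turned to knockout over wild type, and its size divided by that of the deposited statistic gave the implied standard error. Libraries could not be compared with each other.

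Members and lists were chosen with earlier results of these data known. Each distinct model was counted once. The named genes are all tested members, untested members with a mean of at least 0.1 FPKM, the called companion genes with the smallest q (at most 5 per list and direction) and Slbp, Npat, Casp8ap2, Asf1b, Chaf1a, Hira and Pcna; Cabin1, Mki67 and Top2a, the members at 0 and other low members were added after their values were seen. Companion genes whose name was not found in the table were left out. One GENCODE M21 transcript per gene gave GC content, length and sequence, and genes whose reference was longer than 1.2 times the model's span were left out of the trend. The trend was a robust regression on cubic splines, each with 5 terms, of GC content and log2 length (statsmodels 0.14.6), fitted on 7462 coding genes of at least 1 FPKM and applied to 8265; it was tested on simulated data. No coordinate was converted between builds. Some marker genes are not reported here.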

Additional observations from a re-analysis of the deposited data

How the results depend on the processing

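Over the alternatives tried, the count of clustered models called lower (5) fell to 3 at a q under 0.01, to 3 when ratios were centred on the median of all tested models, which leaves out models listed at 0, and to 1 with the trend in GC and length removed, over 21 models. The count for variants and solitary linkers (5) fell to 3 after removal of the trend, and their median log2 ratio went from -1.08 to -0.29. The median of the tested clustered models, -4.26 with models listed at 0 ranked lowest, was -2.12 for means of at least 1 FPKM, -1.49 after removal of the trend, -2.31 with a pseudocount of 0.1 FPKM and -0.65 with one of 1 FPKM; the spread follows from values near 0. A change under 1.5-fold was taken as no move for these medians. The check against the trend is void for the clustered models. Of the 36 tested, 23 had under 0.1 FPKM in the knockout and passed the filter through their wild type value. Their median therefore supports nothing about direction. The settings run also covered the choice of model per symbol, models with 1 symbol, the class of Hist1h1 genes and a q under 0.1. Leaving out the shared Hist1 interval, or models listed at 0, was added after seeing the data. No paired analysis was possible because the table has 1 value per genotype, and for the same reason no library could be left out in turn.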
